A study of Medicago sativa with 3 samples.

Results

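The enzymes of galactinol, raffinose and stachyose synthesis were followed in the transcriptomes of grazed and ungrazed alfalfa. They were taken as the assembled transcripts whose best protein match was named as a galactinol, raffinose or stachyose enzyme, as galactosyltransferase 6, or as inositol-3-phosphate synthase (also called myo-inositol-1-phosphate synthase), and whose best protein and best nucleotide matches were both in a listed legume genus. This rule gave 12 of 95646 transcripts: 3 galactinol synthases, 4 raffinose synthases, 3 stachyose synthases and 2 inositol-3-phosphate synthases. The words alone matched 14 transcripts, 13 with a legume protein match. No expression value entered the rule. A legume-matched transcript below is 1 of the 52669 that had both matches.

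The plants were Medicago sativa ssp. falcata of the cultivar Hulunbeier, selected under sheep grazing into an intolerant population, MF200402, of weak regrowth and a tolerant population, MF200401, of vigorous regrowth, and divided clonally. There were 3 RNA bulks with 1 library each, so no replicate supports any difference: intolerant grazed, tolerant grazed and tolerant ungrazed, each an equal mix of leaf, stem and root RNA from 10 plants collected a week after the sheep had left. The ungrazed plants stood in 1 fenced block of the same field and were cut to the height of the grazed plants when the sheep were removed, so grazing and block cannot be told apart, and no ungrazed intolerant bulk was sequenced. The aligned fragments (read pairs placed on exactly 1 transcript) came to 22.3, 22.7 and 22.8 mega-fragments in the intolerant grazed, tolerant grazed and tolerant ungrazed libraries, of which 88.8%, 80.4% and 79.9% lay on legume-matched transcripts. Both comparisons, intolerant grazed against tolerant grazed and tolerant grazed against tolerant ungrazed, use the tolerant grazed bulk.

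The raffinose family oligosaccharides are sucrose extended by galactose units. Inositol-3-phosphate synthase makes the precursor of myo-inositol, galactinol synthase joins myo-inositol to galactose from UDP-galactose, raffinose synthase passes that galactose to sucrose, and stachyose synthase passes another to raffinose. In plants these sugars fill maturing seeds, move in the phloem of some species and build up under cold, drought and heat, and alpha-galactosidases take them apart again. No nucleotide or protein sequence of the transcripts was used here, and since they were assembled without a genome they have no chromosomal position.

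Levels are given as FPKM, fragments divided by transcript length in kilobases and by the mega-fragments aligned in the library, and a difference as the log2 ratio of 2 FPKM values, called past the threshold at 1 in absolute value. The brackets hold 95% intervals, exact for single transcripts and approximate (delta method) for sums, which cover the counting of fragments only and not the spread between plants or libraries. A count of 3 fragments or fewer was treated as the floor, which at a length of 1 kilobase is 0.135, 0.132 and 0.131 FPKM in the intolerant grazed, tolerant grazed and tolerant ungrazed libraries. In these bulks fewer cells of a type and less RNA per cell cannot be told apart.

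All 12 transcripts had fragments in every library. Together they took 4509 fragments in the intolerant grazed bulk, 3653 in the tolerant grazed bulk and 4498 in the tolerant ungrazed bulk, or 202, 161 and 197 per mega-fragment aligned. The abundant ones were Unigene6245_All, a raffinose synthase relative, and both inositol-3-phosphate synthase contigs, whose mean FPKM lay at the 91.4, 90.7 and 87.2 percentile of legume-matched transcripts. The galactinol and stachyose synthases lay lower, the highest of each at the 76.3 and 58.5 percentile. The highest FPKM was found in the intolerant grazed bulk for 7 transcripts, in the tolerant grazed bulk for 2 and in the tolerant ungrazed bulk for 3. The same split over all legume-matched transcripts was not counted, so the 7 cannot be read as a trait of these enzymes. The median log2 ratio of intolerant grazed against tolerant grazed was 0.28 over legume-matched transcripts and 0.17 over the 12. Of the 12, 4 were under 20 fragments in every library, all of them under 500 bases long, and their ratios are loose. The low pooled total of the tolerant grazed bulk rested on Unigene6245_All, with 1796, 1108 and 2106 fragments in the intolerant grazed, tolerant grazed and tolerant ungrazed bulks. The totals also leave out CL7361.Contig1_All, an inositol-3-phosphate synthase contig missed by its spelling and described below. It had 1750, 3040 and 1754 fragments in the same bulks.

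**Figure D1:**
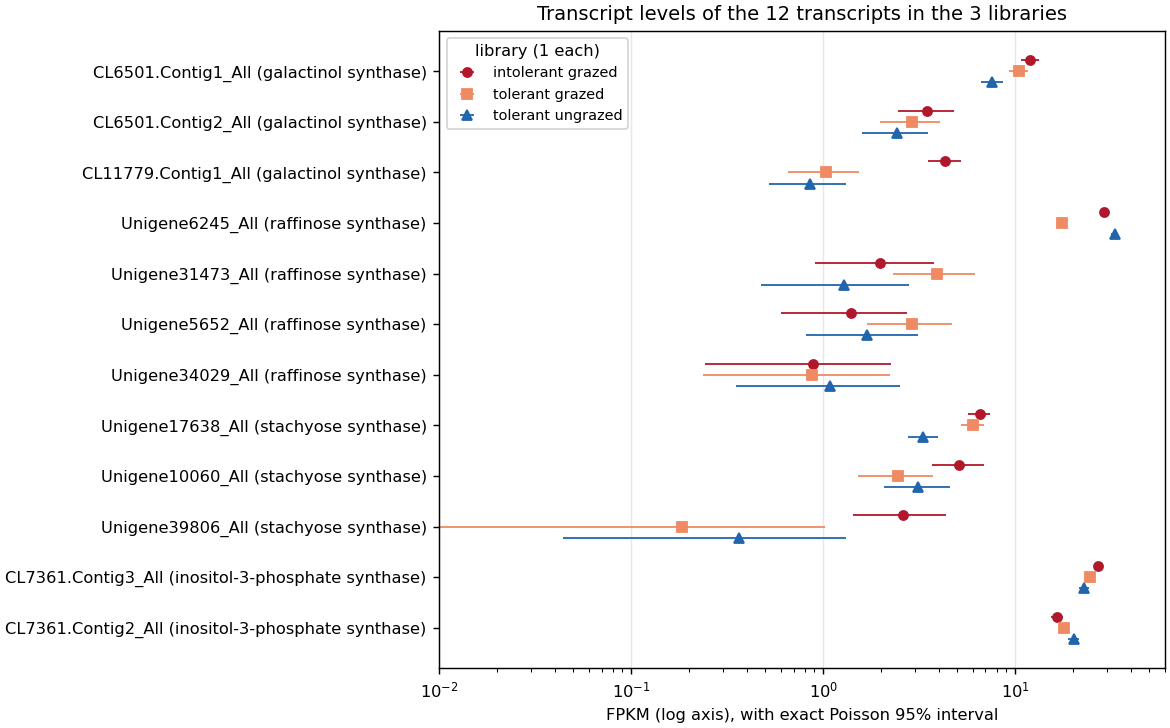
FPKM of the 12 transcripts on a log axis, with 1 point for each library and its exact Poisson 95% interval. Unigene6245_All stood lowest in the tolerant grazed bulk (17.5 FPKM), CL11779.Contig1_All highest in the intolerant grazed bulk (4.31 FPKM), and the lower end of the Unigene39806_All interval in the tolerant grazed bulk runs off the axis.

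Galactinol synthase, the enzyme at the entry of the pathway, was found on 3 transcripts of 2 assembly clusters. CL6501.Contig1_All (1301 bases), matched to a Medicago sativa galactinol synthase whose messenger RNA is named corF, had 11.999 FPKM in the intolerant grazed bulk, 10.4 in the tolerant grazed bulk and 7.58 in the tolerant ungrazed bulk, from 348, 307 and 225 fragments. Both grazed libraries thus stood above the ungrazed one, which was of the tolerant population only, and the intervals of the grazed libraries overlapped each other. For the intolerant grazed bulk, population and grazing cannot be told apart in that difference. The log2 ratio was 0.46 [0.21, 0.71] for tolerant grazed against tolerant ungrazed and 0.20 [-0.02, 0.43] for intolerant grazed against tolerant grazed, neither past the threshold. Its KEGG orthology number named glycogenin glucosyltransferase, while its protein, nucleotide and Swiss-Prot matches and its GO term all named galactinol synthase.

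CL6501.Contig2_All, a contig of 490 bases in the same cluster, had 3.48 FPKM in the intolerant grazed bulk, 2.88 in the tolerant grazed bulk and 2.41 in the tolerant ungrazed bulk, in the same order as its longer partner but with intervals that all overlapped. Its log2 ratios were 0.26 [-0.53, 1.05] for tolerant grazed against tolerant ungrazed and 0.27 [-0.45, 1.00] for intolerant grazed against tolerant grazed.

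The other galactinol synthase was highest in the intolerant grazed bulk. CL11779.Contig1_All (1030 bases), matched to the Medicago truncatula gene MTR_7g109920, had 99 fragments in the intolerant grazed bulk, 24 in the tolerant grazed bulk and 20 in the tolerant ungrazed bulk, which are 4.31, 1.03 and 0.85 FPKM. The intolerant grazed bulk stood apart from both tolerant libraries, whose intervals overlapped. The ratio of intolerant grazed against tolerant grazed was 4.19-fold, a log2 ratio of 2.07 [1.41, 2.78], while that of tolerant grazed against tolerant ungrazed was 0.27 [-0.64, 1.21]. This contig made up 20.4% of the galactinol synthase fragments in the intolerant grazed bulk (Wilson 95% interval 17.1 to 24.2), 6.61% in the tolerant grazed bulk (4.48 to 9.65) and 7.35% in the tolerant ungrazed bulk (4.81 to 11.1). Summed over the enzyme, galactinol synthase reached 19.8 FPKM in the intolerant grazed bulk, 14.3 in the tolerant grazed bulk and 10.8 in the tolerant ungrazed bulk.

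By the names of their matches, the raffinose synthase transcripts were 1 long and abundant one and 3 short, rare ones. Unigene6245_All (2791 bases) had 28.9 FPKM in the intolerant grazed bulk, 17.5 in the tolerant grazed bulk and 33.1 in the tolerant ungrazed bulk, from 1796, 1108 and 2106 fragments. The tolerant grazed bulk was the lowest, and none of the 3 intervals overlapped. Tolerant grazed against tolerant ungrazed gave 0.53-fold, a log2 ratio of -0.92 [-1.02, -0.81] that stopped just short of the threshold, and intolerant grazed against tolerant grazed gave 1.65-fold, 0.72 [0.61, 0.83]. By other scalings the log2 ratio of tolerant grazed against tolerant ungrazed ran from -1.01, past the threshold, when rescaled by the median ratio of transcripts at 1 FPKM or more in every library, to -0.81 in TPM.

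The annotation of Unigene6245_All was mixed. Its best protein was a predicted galactinol-sucrose galactosyltransferase 2-like protein of Glycine max and its Swiss-Prot match was Arabidopsis RFS2, and its GO terms held raffinose catabolic process and raffinose alpha-galactosidase activity beside the synthase activity. In Arabidopsis the product of that gene is known as an alkaline alpha-galactosidase that breaks raffinose down. The transcript took 98.8% of the raffinose synthase fragments in the intolerant grazed bulk, 96.6% in the tolerant grazed bulk and 99.0% in the tolerant ungrazed bulk. By summed FPKM its part was smaller, at 28.9 of 33.1, 17.5 of 25.2 and 33.1 of 37.1 in the same libraries, since the other 3 transcripts are short. The enzyme's total is still largely the level of a transcript annotated to both making and breaking raffinose.

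The 3 short transcripts shared 1 best protein, another galactosyltransferase-like protein of Glycine max, and whether they come from 1 gene was not tested. Unigene31473_All (204 bases) had 9 fragments in the intolerant grazed bulk, 18 in the tolerant grazed bulk and 6 in the tolerant ungrazed bulk (1.98, 3.90 and 1.29 FPKM). It was 3.02-fold higher in the tolerant grazed than in the tolerant ungrazed bulk, a log2 ratio of 1.60 [0.20, 3.22], and had -0.98 [-2.31, 0.25] for intolerant grazed against tolerant grazed. Unigene5652_All (258 bases) was highest in the same library, with 8, 17 and 10 fragments (1.39, 2.91 and 1.70 FPKM) in the intolerant grazed, tolerant grazed and tolerant ungrazed libraries, and had log2 ratios of 0.78 [-0.43, 2.07] for tolerant grazed against tolerant ungrazed and -1.06 [-2.49, 0.23] for intolerant grazed against tolerant grazed. Unigene34029_All (203 bases) had 4, 4 and 5 fragments (0.88, 0.87 and 1.08 FPKM) in that order of libraries, too few to rank them.

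Summed, these 3 transcripts had 4.25 FPKM in the intolerant grazed bulk, 7.67 in the tolerant grazed bulk and 4.07 in the tolerant ungrazed bulk, and were highest in the bulk where Unigene6245_All was lowest. The log2 ratio of the sum was 0.92 [0.15, 1.69] for tolerant grazed against tolerant ungrazed and -0.85 [-1.62, -0.08] for intolerant grazed against tolerant grazed, on 21, 39 and 21 fragments in the intolerant grazed, tolerant grazed and tolerant ungrazed libraries. With all 4 transcripts, raffinose synthase came to 33.1 FPKM in the intolerant grazed bulk, 25.2 in the tolerant grazed bulk and 37.1 in the tolerant ungrazed bulk.

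Stachyose synthase adds the next galactose. Unigene17638_All (1568 bases), matched to the stachyose synthase of Pisum sativum and to the Medicago truncatula gene MTR_7g109790, had 6.52 FPKM in the intolerant grazed bulk, 5.997 in the tolerant grazed bulk and 3.33 in the tolerant ungrazed bulk, from 228, 213 and 119 fragments. Both grazed libraries stood above the tolerant ungrazed one with intervals that did not reach it, as for CL6501.Contig1_All and with the same limit. The ratio of tolerant grazed against tolerant ungrazed was 1.80-fold, a log2 ratio of 0.85 [0.52, 1.19] below the threshold, and that of intolerant grazed against tolerant grazed was 0.12 [-0.16, 0.40].

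The shorter stachyose synthase transcripts were highest in the intolerant grazed bulk. Unigene10060_All (378 bases), matched to MTR_8g088020, had 43 fragments in the intolerant grazed bulk, 21 in the tolerant grazed bulk and 27 in the tolerant ungrazed bulk, which are 5.10, 2.45 and 3.13 FPKM. It was 2.08-fold higher in the intolerant grazed than in the tolerant grazed bulk, a log2 ratio of 1.06 [0.27, 1.88], and had -0.35 [-1.25, 0.53] for tolerant grazed against tolerant ungrazed. The interval of its level in the intolerant grazed bulk, from 3.69 to 6.87 FPKM, overlapped those in the tolerant grazed bulk, from 1.52 to 3.75 FPKM, and in the tolerant ungrazed bulk, from 2.06 to 4.55 FPKM.

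Unigene39806_All (241 bases) had 14 fragments in the intolerant grazed bulk, 1 in the tolerant grazed bulk and 2 in the tolerant ungrazed bulk (2.61, 0.18 and 0.36 FPKM). Its log2 ratio of intolerant grazed against tolerant grazed was 3.83 [1.11, 9.23], on a single fragment in the tolerant grazed bulk, and no ratio is given between the tolerant libraries because both were at the floor. It had no Swiss-Prot match and no orthology number, and its GO terms were nucleic acid and zinc ion binding, so its name rests on 1 Medicago truncatula protein alone. With this doubtful transcript kept, the 3 stachyose synthases summed to 14.2 FPKM in the intolerant grazed bulk, 8.63 in the tolerant grazed bulk and 6.82 in the tolerant ungrazed bulk.

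Inositol-3-phosphate synthase supplies the inositol of galactinol, and its 2 contigs within the rule were near level. CL7361.Contig3_All (1941 bases) had 27.2 FPKM in the intolerant grazed bulk, 24.5 in the tolerant grazed bulk and 22.8 in the tolerant ungrazed bulk. CL7361.Contig2_All (2037 bases), of the same cluster and with the same best protein of Medicago falcata, ran in the opposite order with 16.4, 18.0 and 20.2 FPKM. The log2 ratios of CL7361.Contig3_All were 0.10 [-0.02, 0.23] for tolerant grazed against tolerant ungrazed and 0.15 [0.03, 0.27] for intolerant grazed against tolerant grazed. Those of CL7361.Contig2_All were -0.17 [-0.31, -0.03] and -0.13 [-0.27, 0.02] for the same comparisons. The sum of both was 43.6 FPKM in the intolerant grazed bulk, 42.5 in the tolerant grazed bulk and 43.0 in the tolerant ungrazed bulk, with log2 ratios of -0.02 [-0.11, 0.07] for tolerant grazed against tolerant ungrazed and 0.04 [-0.05, 0.13] for intolerant grazed against tolerant grazed.

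Another contig of that cluster, CL7361.Contig1_All, fell outside the rule because its best protein is spelled L-myo inositol-1 phosphate synthase, and it was singled out after its values were seen. CL7361.Contig1_All (1886 bases) had 41.6 FPKM in the intolerant grazed bulk, 71.2 in the tolerant grazed bulk and 40.7 in the tolerant ungrazed bulk. It was highest in the tolerant grazed bulk, at 1.75-fold the tolerant ungrazed level (log2 ratio 0.80 [0.72, 0.89]), and its log2 ratio of intolerant grazed against tolerant grazed was -0.77 [-0.86, -0.69]. It held 47.7% of the cluster's fragments in the intolerant grazed bulk, 61.4% in the tolerant grazed bulk and 47.3% in the tolerant ungrazed bulk. With it the cluster summed to 85.2 FPKM in the intolerant grazed bulk, 113.7 in the tolerant grazed bulk and 83.8 in the tolerant ungrazed bulk, so the near-level sum of the 2 contigs within the rule does not describe the cluster. How the reads were divided among contigs of nearly the same sequence was not tested, and reads that fitted more than 1 contig were not counted.

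**Figure D2:**
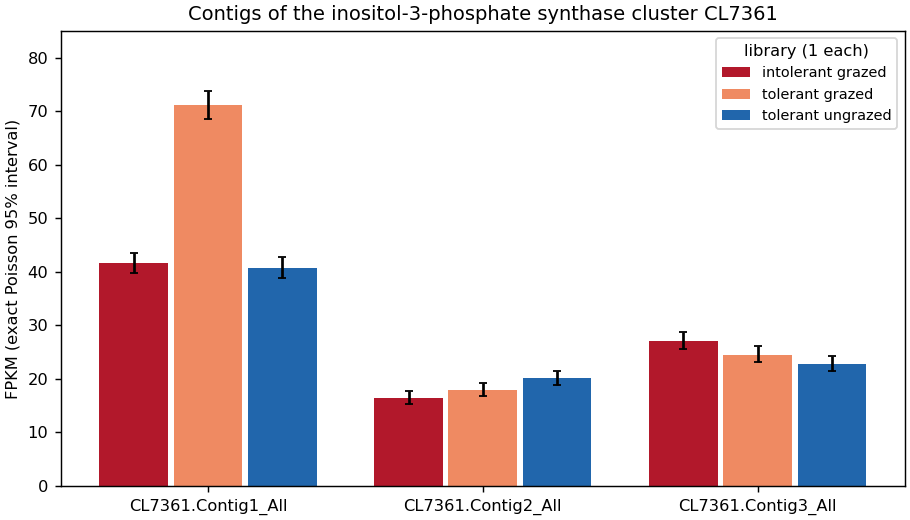
FPKM of the 3 contigs of cluster CL7361, with 1 bar for each library and the exact Poisson 95% interval. CL7361.Contig1_All, outside the rule by its spelling, reached 71.2 FPKM in the tolerant grazed bulk, while the other contigs changed little between libraries.

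In the comparison of intolerant grazed against tolerant grazed plants, 3 of the 12 transcripts were past the threshold as higher and 1 as lower. Of 52588 legume-matched transcripts with fragments in either library, 22.3% were higher and 13.4% lower by the same threshold, so the share of the 12 was near the background. The higher ones were CL11779.Contig1_All, Unigene10060_All and Unigene39806_All, and the lower one was Unigene5652_All. Rescaled by the median ratio, by TPM or by legume-matched totals, 2 were higher and 2 lower, since Unigene10060_All dropped out and Unigene31473_All came in as lower. With the Poisson test of the study added to the threshold, which compares the libraries and not the conditions, 1 passed, CL11779.Contig1_All. The 12 had a median log2 ratio of 0.17, against 0.28 over the legume-matched transcripts. Among the 8 with at least 20 fragments in either library, 2 were higher and 0 lower, against 20% and 11% of 42454 legume-matched transcripts. The counting interval lay above 0 for 5 of the 12, below 0 for 0 and included 0 for 7. For the Poisson test and the intervals the share of legume-matched transcripts was not counted, so no background stands beside these counts.

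In the comparison of tolerant grazed against tolerant ungrazed plants, 1 of the 12, Unigene31473_All, was higher past the threshold and 0 were lower. The background was 15.7% higher and 8.78% lower over 51985 legume-matched transcripts. Rescaled by the median ratio, 1 was higher and 2 lower. The median log2 ratio was 0.18 for the 12, with Unigene39806_All at the floor included, and 0.12 for the legume-matched transcripts. None of the 8 with at least 20 fragments passed the threshold, against 11.4% higher and 6.68% lower of 39436. The counting interval lay above 0 for 3 of the 12, below 0 for 2 and included 0 for 7, again with no background counted. With 1 library a group, no p-value across replicates can be had in either comparison.

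**Figure D3:**
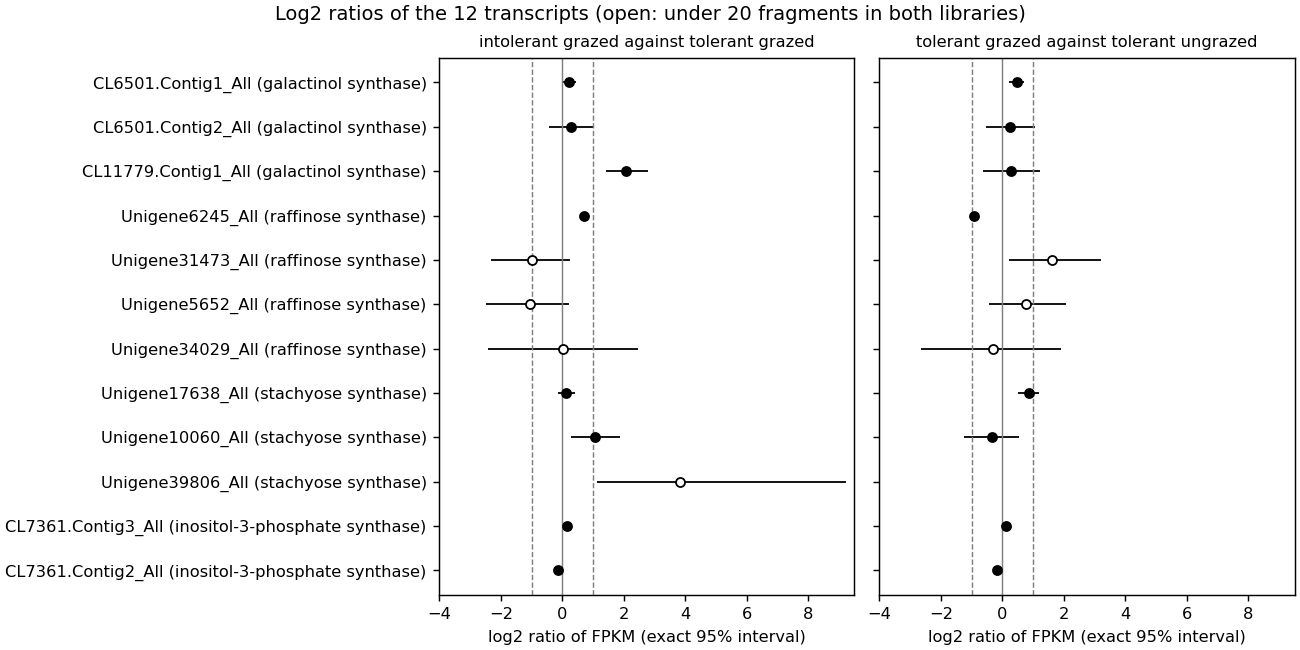
Log2 ratios of FPKM of the 12 transcripts with exact 95% counting intervals, for intolerant grazed against tolerant grazed (left) and tolerant grazed against tolerant ungrazed (right); dashed lines mark the threshold of 1 in either direction, and Unigene39806_All has no point on the right. CL11779.Contig1_All was far above the threshold on the left (2.07), and Unigene6245_All lay near the lower threshold on the right (-0.92).

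By enzyme, the summed log2 ratio of intolerant grazed against tolerant grazed was 0.72 [0.40, 1.04] for stachyose synthase, 0.47 [0.25, 0.68] for galactinol synthase and 0.39 [0.21, 0.57] for raffinose synthase, beside the 0.04 of inositol-3-phosphate synthase. The 0.04 is of the 2 contigs within the rule, and with CL7361.Contig1_All, outside it, the sum had -0.42 [-0.48, -0.35]. The sums of the first 3 enzymes were higher in the intolerant grazed bulk, none past the threshold. Each rested on few transcripts: without its most abundant transcript the stachyose synthase sum had 1.55, the galactinol synthase sum 0.99 and the raffinose synthase sum -0.85. The most abundant transcript alone had 0.12 for stachyose synthase, 0.20 for galactinol synthase and 0.72 for raffinose synthase. The stachyose synthase sum thus owed most of its height to its 2 short transcripts of few fragments, among them Unigene39806_All of doubtful name. For tolerant grazed against tolerant ungrazed the summed log2 ratio was 0.40 [0.16, 0.65] for galactinol synthase, 0.34 [-0.04, 0.72] for stachyose synthase and -0.56 [-0.73, -0.38] for raffinose synthase. The raffinose synthase sum turned to 0.92 without Unigene6245_All, and the stachyose synthase sum to -0.41 without Unigene17638_All. Over the 48423 transcripts that reached 1 FPKM in all 3 libraries the median log2 ratio was itself 0.24 for intolerant grazed against tolerant grazed and 0.09 for tolerant grazed against tolerant ungrazed. Relative to it the sums of intolerant grazed against tolerant grazed were 0.49 for stachyose synthase, 0.23 for galactinol synthase, 0.16 for raffinose synthase and -0.20 for inositol-3-phosphate synthase.

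The summed tissue markers were each highest in the intolerant grazed bulk. Such levels cannot tell the makeup of a bulk from RNA per cell. The 22 leaf markers (small subunit of Rubisco and chlorophyll-binding proteins) were detected in every library and summed to 25049 FPKM in the intolerant grazed bulk, 10880 in the tolerant grazed bulk and 10037 in the tolerant ungrazed bulk. The 37 stem and vessel wall markers summed to 312, 262 and 225 FPKM in the same libraries, with 1 of them at 0 in the intolerant grazed bulk, and the 2 root markers to 47.8, 38.0 and 35.2 FPKM. The 7 seed and pod markers summed to 47.3 FPKM in the intolerant grazed bulk, 16.2 in the tolerant grazed bulk and 11.0 in the tolerant ungrazed bulk, with 1, 1 and 3 of them at 0. Of these 7, 5 had more fragments in the intolerant grazed than in the tolerant grazed bulk and 2 had fewer. They ranged from Unigene39532_All, a seed storage legumin with 398, 2 and 0 fragments in the intolerant grazed, tolerant grazed and tolerant ungrazed bulks, to CL13204.Contig2_All, another legumin with 0, 6 and 2. The part of these markers in the levels of CL11779.Contig1_All, Unigene10060_All and Unigene39806_All was not tested. Among the legume-matched transcripts searched, none was named for the nodule marker leghemoglobin.

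Of the GO terms of the 12, galactose metabolic process stood on 4 of them and on 0.0684% of legume-matched transcripts, and response to water deprivation, to heat, to high light intensity, to hydrogen peroxide, to oxidative stress and to abscisic acid stimulus stood on 4 each, against 0.492% to 1.29% of legume-matched transcripts. Inositol 3-alpha-galactosyltransferase activity, the galactinol synthase reaction, stood on 3 legume-matched transcripts, which were the 3 galactinol synthases. GO terms are copied from the best matches, so they restate the annotation.

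Unigene6245_All was set beside other legume-matched transcripts that carry its orthology number, K06617, under other names, chosen after their values were seen. These 16 transcripts of 4 clusters are named alkaline alpha-galactosidase, an enzyme of raffinose breakdown, seed imbibition protein or, in 1 case, Q protein. They summed to 139 FPKM in the intolerant grazed bulk, 87.9 in the tolerant grazed bulk and 103 in the tolerant ungrazed bulk, and so were lowest in the tolerant grazed bulk, as Unigene6245_All was. Their summed log2 ratio was 0.66 [0.60, 0.72] for intolerant grazed against tolerant grazed and -0.23 [-0.30, -0.17] for tolerant grazed against tolerant ungrazed. Past the threshold, 5 of 16 were higher and 0 lower in intolerant grazed against tolerant grazed, beside the background of 22.3% and 13.4%, and 0 of 16 passed in tolerant grazed against tolerant ungrazed, beside 15.7% and 8.78%. The higher ones were CL7702.Contig4_All and, all of 1 cluster, CL910.Contig1_All, CL910.Contig2_All, CL910.Contig3_All and CL910.Contig4_All. The last had 13, 5 and 7 fragments in the intolerant grazed, tolerant grazed and tolerant ungrazed bulks.

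Among the clusters, CL10147 came nearest to Unigene6245_All, with 35.7 FPKM in the intolerant grazed bulk, 24.7 in the tolerant grazed bulk and 35.6 in the tolerant ungrazed bulk. CL10401 had 14.8, 12.6 and 9.97 FPKM in the same libraries, but its 2 contigs had a best protein score of 37.4 only and a Swiss-Prot match to a U-box domain protein of Arabidopsis, so their name is doubtful. Without them the relatives summed to 124 FPKM in the intolerant grazed bulk, 75.4 in the tolerant grazed bulk and 93.5 in the tolerant ungrazed bulk, with the same 5 past the threshold. Among those 5, CL910.Contig1_All, the Q protein, had a best protein score of 26.2 only, with a Swiss-Prot match to Arabidopsis RFS1, and was kept. A further 3 transcripts, whose best protein is misspelt as raffionse synthase 3 and which the rule therefore missed, summed to 18.7 FPKM in the intolerant grazed bulk, 11.9 in the tolerant grazed bulk and 10.5 in the tolerant ungrazed bulk. Of these, Unigene4740_All (840 bases) had 8.17, 3.89 and 4.17 FPKM and a log2 ratio of 1.07 [0.66, 1.49] for intolerant grazed against tolerant grazed. Unlike Unigene6245_All, their sum was not lower in the tolerant grazed than in the tolerant ungrazed bulk, with a log2 ratio of 0.18 [-0.16, 0.52]. Unigene35373_All (297 bases), a galactinol synthase with a protein match outside the listed genera, had 16 fragments in the intolerant grazed bulk, 4 in the tolerant grazed bulk and 2 in the tolerant ungrazed bulk, the same order as CL11779.Contig1_All. Unigene2864_All (230 bases), with a legume protein but no nucleotide match, had 2, 10 and 6 fragments in the intolerant grazed, tolerant grazed and tolerant ungrazed bulks and shared its highest library with the short raffinose synthases Unigene31473_All and Unigene5652_All.

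**Figure D4:**
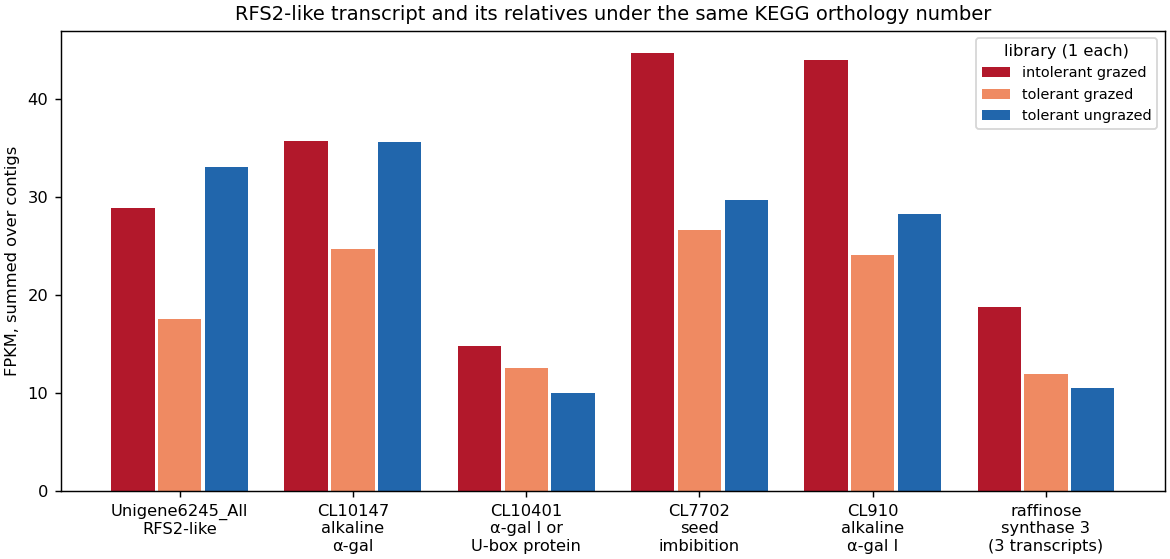
FPKM of Unigene6245_All and the summed FPKM of its relatives by cluster and of the 3 transcripts misspelt as raffionse synthase 3, with 1 bar for each library and no error bars (1 library each). Unigene6245_All and the clusters CL10147, CL7702 and CL910 were lowest in the tolerant grazed bulk, while CL10401 and the 3 misspelt transcripts were lowest in the tolerant ungrazed bulk.

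Around the pathway, the lists of enzymes and carriers that feed or drain it held 121 legume-matched transcripts. In intolerant grazed against tolerant grazed, 42 of 120 with fragments were higher and 15 lower past the threshold, with a median log2 ratio of 0.59, beside the background of 22.3% and 13.4%. In tolerant grazed against tolerant ungrazed, 16 of 121 were higher and 21 lower, with a median of 0.01, beside the background of 15.7% and 8.78%. Much of these pooled counts was sucrose synthase, with 44 transcripts. It gave 22 of the 42 higher and 11 of the 15 lower in the former comparison, and 10 of 16 and 14 of 21 in the latter. UDP-glucose 4-epimerase, which makes UDP-galactose for galactinol synthase, summed to 32.9 FPKM in the intolerant grazed bulk, 14.6 in the tolerant grazed bulk and 20.1 in the tolerant ungrazed bulk, and 1 of its 2 transcripts was higher past the threshold in intolerant grazed against tolerant grazed. That transcript, CL7786.Contig2_All, had 28.5, 11.6 and 15.2 FPKM in these libraries.

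On the inositol side, the 10 inositol transporters summed to 97.9 FPKM in the intolerant grazed bulk, 49.8 in the tolerant grazed bulk and 50.7 in the tolerant ungrazed bulk, with 4 higher and 0 lower in intolerant grazed against tolerant grazed and 0 past the threshold in tolerant grazed against tolerant ungrazed. The 2 inositol monophosphatases, which free myo-inositol from the product of inositol-3-phosphate synthase, were highest in the tolerant grazed bulk, with 22.6, 27.1 and 22.8 FPKM in the intolerant grazed, tolerant grazed and tolerant ungrazed libraries, and 0 of them passed the threshold. The 3 inositol oxygenases, which send inositol towards cell wall sugars, had 99.6, 77.2 and 100.1 FPKM and none past the threshold. The 5 inositol phosphate kinases had 33.3, 20.02 and 78.6 FPKM, with 1 higher and 2 lower in tolerant grazed against tolerant ungrazed and 1 higher and 1 lower in intolerant grazed against tolerant grazed. The background beside these counts was 22.3% higher and 13.4% lower in intolerant grazed against tolerant grazed. In tolerant grazed against tolerant ungrazed it was 15.7% and 8.78%.

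On the sucrose side, the 44 sucrose synthase transcripts summed to 1712 FPKM in the intolerant grazed bulk, 1093 in the tolerant grazed bulk and 3198 in the tolerant ungrazed bulk, and 10 were higher and 14 lower in tolerant grazed against tolerant ungrazed. In intolerant grazed against tolerant grazed 22 of them were higher and 11 lower. The 26 invertases summed to 242, 188 and 254 FPKM in the intolerant grazed, tolerant grazed and tolerant ungrazed libraries, with 1 higher and 4 lower in tolerant grazed against tolerant ungrazed and 5 higher and 1 lower in intolerant grazed against tolerant grazed. The 4 sucrose-phosphate synthases, which make sucrose, summed to 38.4, 25.9 and 25.5 FPKM in the intolerant grazed, tolerant grazed and tolerant ungrazed bulks. Of these, Unigene35604_All had 212, 1 and 0 fragments, carried an orthology number of a ubiquitin-conjugating enzyme (K10583) and had no Swiss-Prot match, and without it the sums were 26.6, 25.9 and 25.5 FPKM. The 25 alpha-galactosidases, which include 10 of the 16 relatives of Unigene6245_All, summed to 270, 214 and 202 FPKM, with 8 higher and 2 lower in intolerant grazed against tolerant grazed and 3 higher and 0 lower in tolerant grazed against tolerant ungrazed. Beside the counts on the sucrose side stands the same background, 22.3% higher and 13.4% lower in intolerant grazed against tolerant grazed. For tolerant grazed against tolerant ungrazed it is 15.7% and 8.78%. Among the legume-matched transcripts searched, none was named for inositol O-methyltransferase.

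**Figure D5:**
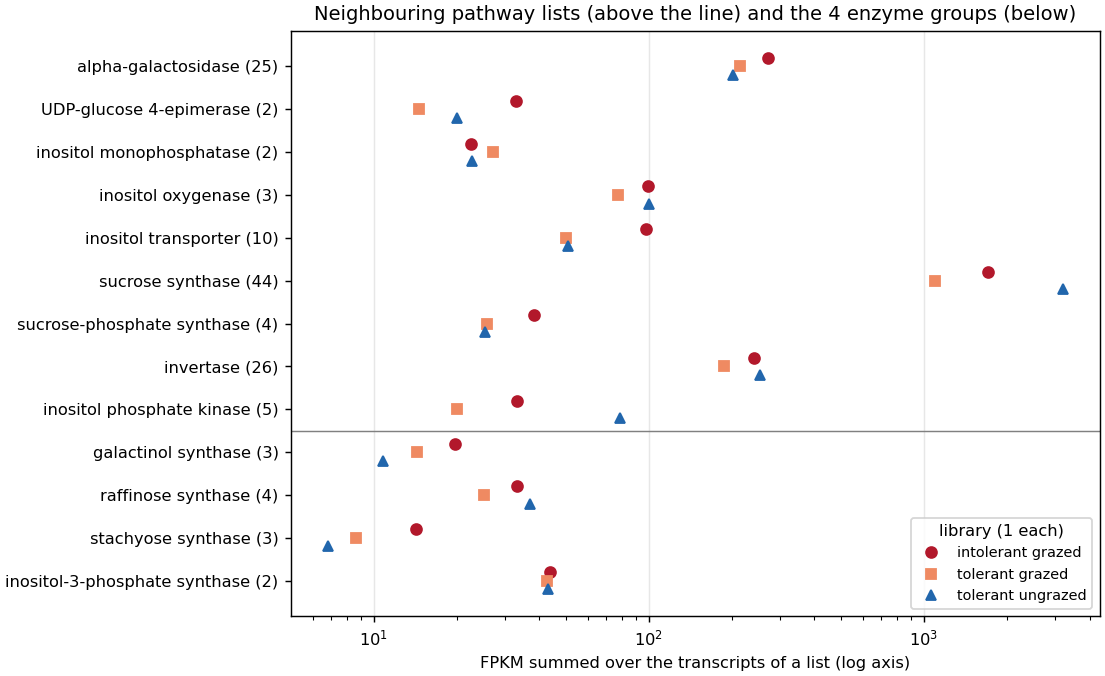
Summed FPKM of each neighbouring list (number of transcripts in brackets) and of the 4 enzyme groups, on a log axis, with 1 point for each library. Sucrose synthase and inositol phosphate kinase stood highest in the tolerant ungrazed bulk, and the inositol transporters and UDP-glucose 4-epimerase in the intolerant grazed bulk.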

How the data were processed

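Each of the 3 RNA bulks was sequenced as 1 paired-end library. The authors assembled the reads de novo with Trinity and TGICL and deposited, for each transcript, the count of fragments uniquely aligned with SOAP, not normalized. The authors also deposited FPKM values made from that count, the transcript length and the total of aligned fragments, and recomputing them from the counts gave differences of at most 5e-05. Program versions are not given in the sources used here, and 0 per-sample columns were left unused.

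The members and lists were chosen with earlier results of these data known. Log2 ratios used 0.01 FPKM in place of 0 and a threshold of 1, intervals were exact Poisson for levels, Clopper-Pearson for ratios of single transcripts, delta-method for sums and Wilson for shares, at 95%, and the floor was 3 fragments. The intervals cover counting error only and treat every fragment as independent. PCR copies are not independent molecules, so the intervals may be too narrow. The transcripts named by rule were, per enzyme, those averaging 5 FPKM or more (at most 8) and, per comparison, the 3 highest and 3 lowest log2 ratios among those with at least 20 fragments in either library. The other members were named so that all 12 are accounted for, and transcripts outside the rule were chosen after their values were seen. Pathway and tissue marker lists were matched by the words of the best protein. Of the alternatives, 34 were planned and 7 added after the data were seen. The computations were tested on simulated counts. Python 3.11.15, numpy 2.4.6, pandas 2.3.3, scipy 1.17.1 and matplotlib 3.10.9 were used.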

Additional observations from a re-analysis of the deposited data

How the results depend on the processing

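No paired analysis was possible because each group was 1 library, and for the same reason no replicate was left out. The settings could not change the sign of a transcript past the threshold. An added constant keeps the sign, and the scalings shifted log2 ratios by 0.24 at most. No sum was past the threshold, and some changed sign, as given here. The count of the 12 transcripts past the threshold in intolerant grazed against tolerant grazed was 4, and fell to 2 with 1 FPKM added, 2 with at least 20 fragments, 2 at a threshold of 2 and 1 with the Poisson test at an adjusted 0.001, which compares the libraries and not the conditions. It was 8 with the transcripts spelled otherwise or without both legume matches. In tolerant grazed against tolerant ungrazed the count was 1, and came to 0 with at least 20 fragments, 0 at a threshold of 2, 0 with the Poisson test, 2 with the transcripts spelled otherwise or without both legume matches (Unigene35373_All, without both, joined as higher) and 3 when rescaled by the median ratio, where Unigene6245_All and Unigene39806_All (1 and 2 fragments in the tolerant grazed and tolerant ungrazed bulks) joined as lower.

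The summed log2 ratios of intolerant grazed against tolerant grazed moved as follows. With the most abundant transcript alone they were 0.20 for galactinol synthase, 0.72 for raffinose synthase, 0.12 for stachyose synthase and 0.15 for inositol-3-phosphate synthase, and without it 0.99, -0.85, 1.55 and -0.13 in the same order of enzymes. With transcripts of at least 500 bases raffinose synthase had 0.72 and stachyose synthase 0.12, and with fragments summed they had 0.69 and 0.30. Rescaling gave 0.23 for galactinol synthase, 0.16 for raffinose synthase and -0.20 for inositol-3-phosphate synthase, which also had -0.057 in TPM, -0.11 with legume-matched totals and -0.42 with CL7361.Contig1_All.

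For tolerant grazed against tolerant ungrazed, the most abundant transcript alone gave -0.92 for raffinose synthase, 0.85 for stachyose synthase and 0.10 for inositol-3-phosphate synthase, and its removal 0.92, -0.41 and -0.17. With at least 500 bases raffinose synthase had -0.92 and stachyose synthase 0.85. Raffinose synthase had -0.88 with fragments summed and -0.32 with the transcripts spelled otherwise or without both legume matches. Inositol-3-phosphate synthase had -0.11 when rescaled, 0.091 in TPM and 0.44 with CL7361.Contig1_All. Of the alternative values for counts and sums, 41 moved and 57 stayed close to those reported. Close means a count of similar size or a sum inside its counting interval. Some of the 57 could not move, because the setting left the transcripts of a sum unchanged. The causes of these shifts were not tested beyond the transcripts each setting adds or leaves out. With 1 library a group, depth limits the 4 transcripts under 20 fragments most.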
